A study of Mnemiopsis leidyi with 40 samples.

Results

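A set of 75 transcripts of the comb jelly Mnemiopsis leidyi was present at the start of cleavage and stood far higher in late embryos. The members were chosen by their measured levels. Counts were summed over blocks of neighbouring times and expressed as counts per 1000000 gene reads (CPM). A member had at least 20 CPM at 0-1 h, had its highest block at 11-13 h or at 20 h with at least 4 times the level of 0-1 h, and had late blocks within 3-fold of each other. Of 16548 gene models in the series, 3941 had at least 20 CPM at 0-1 h, 498 of these were highest in a late block, and 83 of those reached 4-fold. The limit on the late blocks removed 8 and left the 75. A start of at least 20 CPM, the late rise and its plateau are therefore what the rule asked for, and they are given as a description with no test.

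The series profiled single embryos, 2 at each of 20 times, and its labels give a developmental time and no strain, genotype or treatment. The blocks are 0-1 h (4 embryos), 2-3 h (4), 4-5 h (6), 5.5-6.5 h (6), 7-7.5 h (4), 8-9 h (6), 11-13 h (6) and 20 h (2), and the 2 embryos of 10 h were not used by the rule. The deposited sample sheet gives 2 Illumina index numbers, each shared by 20 embryos with 1 embryo of every time. These groups of libraries are called pool 6 and pool 12 here after their index numbers. Replicate 1 of each time is in pool 6 and replicate 2 in pool 12, so index, library preparation and replicate series cannot be told apart. Whether same-age embryos had the same parents is not given, so the spread behind each p-value is that of these embryos only. In 36 libraries 977034 to 4511124 reads fell in gene models. The shallow libraries were 4 h replicate 1, 8.5 h replicate 2, 5.5 h replicate 2 and 10 h replicate 1, the last with 3808 reads, where 3 reads correspond to 788 CPM.

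An animal egg is stocked with messenger RNA made by the mother, and cleavage runs largely on this supply until the embryo transcribes its own genome. Most maternal messages are then degraded, while some gene products are needed again and their transcripts are made anew. In comb jellies the cleavages are fast and follow a fixed pattern, and the embryo develops directly into a small swimming animal with comb rows. The gene models carry identifiers only. None of the 16548 identifiers matched the RefSeq table of crg_Mlei_v2, which lists 19625 genes, so no function or sequence is given for a member.

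The start of the set was low and broad. Over 0-1 h the members lay between 20.0 and 448 CPM with a median of 34.2. Of the 75, 47 were under 40 CPM and 8 were at 100 CPM or more. Behind these levels stood between 170 and 3809 reads per member, with a median of 291. A read was counted for all 75 members in each of the 4 embryos, and 53 reached 20 CPM in both 0 h embryos. In all 4 embryos 39 members reached 20 CPM and 63 reached 10 CPM. For 6 members more than 50% of the CPM summed over the 4 embryos came from 1 embryo, which was 0 h replicate 1 in 5 cases. After removal of that embryo 74 genes met the rule, 64 of them members.

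In late embryos the higher of the late blocks lay between 92.1 and 8394 CPM with a median of 329, and 18 members reached 1000 CPM. The ratio of this block to 0-1 h had a median of 7.24 and ran from 4.00 to 270.2. It was under 6 in 26 members, at least 10 in 25 and at least 50 in 9. The highest block was 20 h in 42 members and 11-13 h in 33, and the ratio of 20 h to 11-13 h had a median of 1.04. Every embryo of 11 to 20 h exceeded every embryo of 0-1 h in 67 of the 75, where 24.4% of all 9576 tested genes showed this separation. The rule used this contrast, so nothing is read from the count.

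At the edge of the rule, ML12075a and ML101011a lay just inside the 4-fold limit, at 34.8 CPM over 0-1 h and 139 over 11-13 h, and at 76.6 and 307. Just outside it, with a ratio of 3.95 each, were ML08446a, with 24.1 CPM at 0-1 h and 95.4 at 11-13 h, and ML22521a, with 76.4 CPM at 0-1 h and 301 at 20 h.

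**Figure D1:**
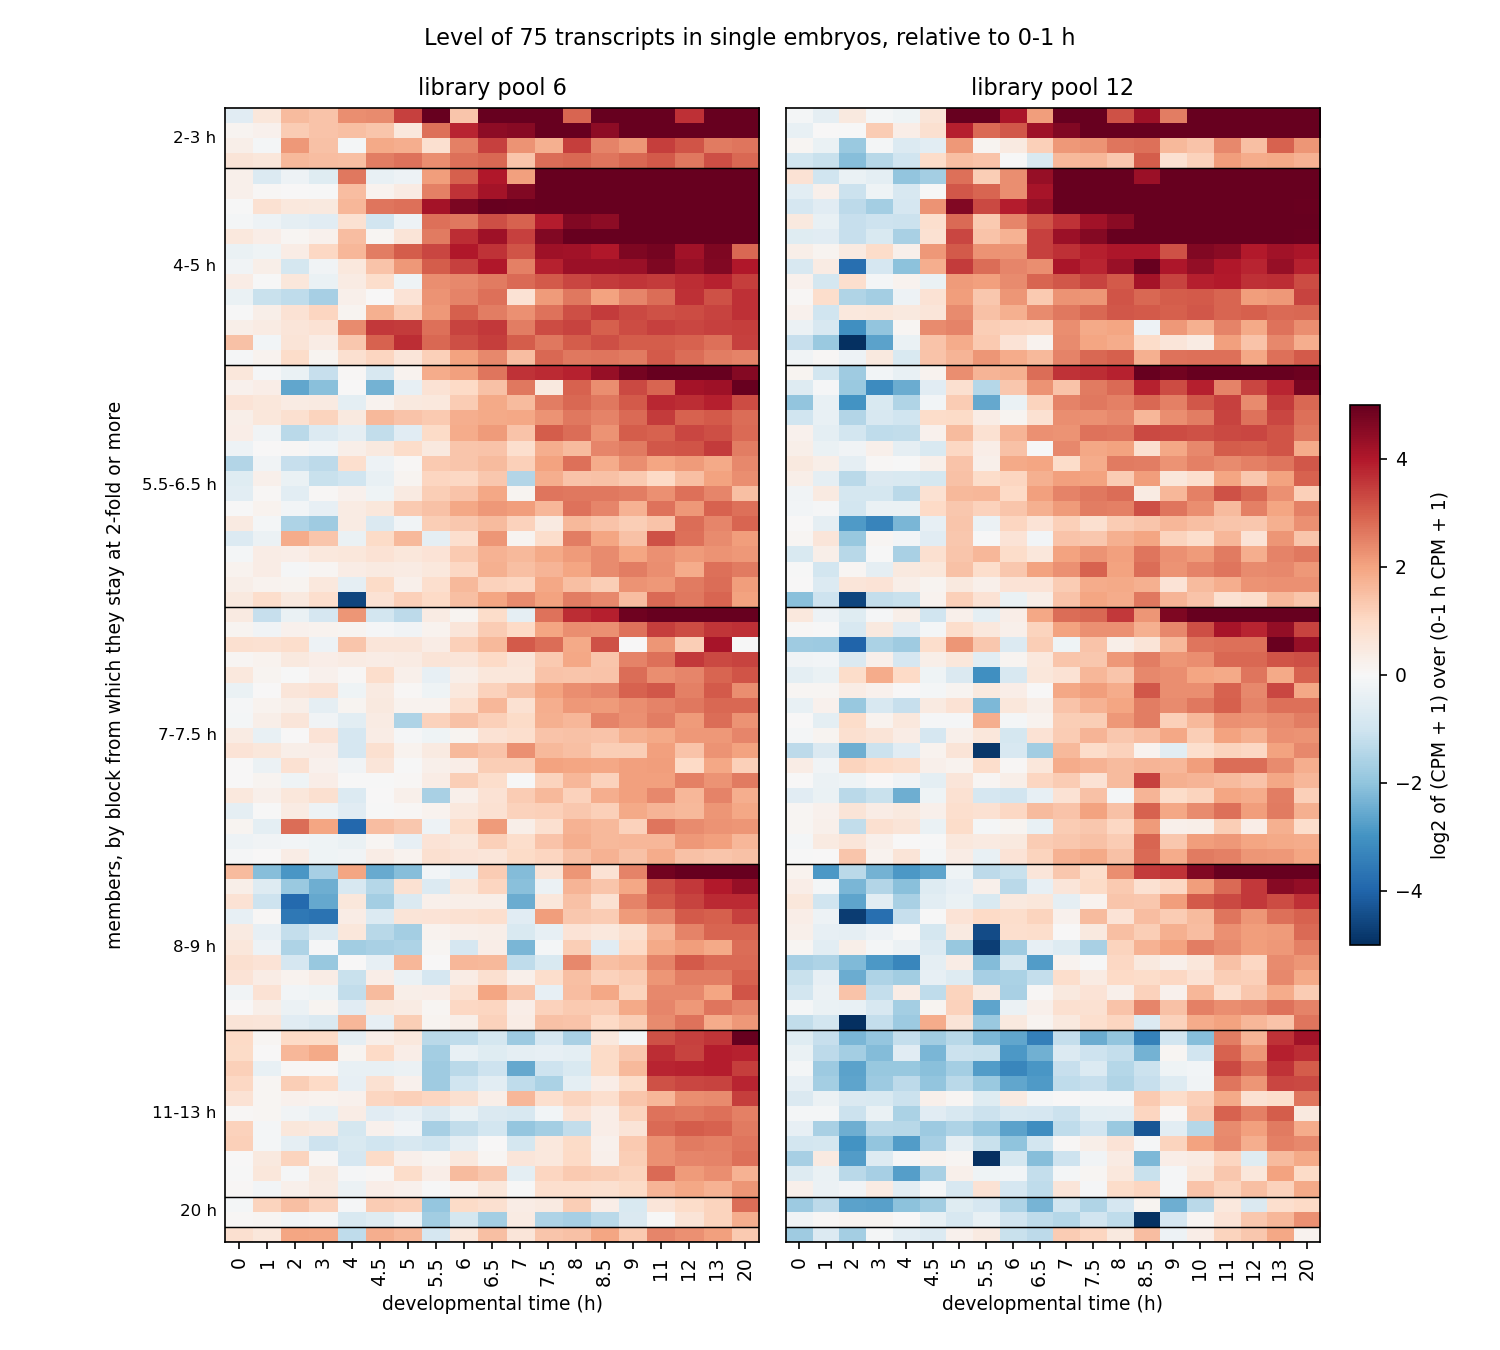
Level of each of the 75 members (rows) in each embryo (columns, by developmental time in h), as log2 of CPM + 1 over the 0-1 h CPM + 1, for pools 6 and 12, with 10 h replicate 1 left out. Rows are grouped by the block from which a member stays at 2-fold or more, and the colour scale ends at -5 and 5. The members leave the 0-1 h level at different blocks, from 2-3 h for 4 of them to 20 h for 2, and several of those that leave it at 11-13 h are below it in between.

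Together the 75 transcripts grew from well under 1% of gene reads to several percent. In the 4 embryos of 0-1 h their summed share was 0.626% and 0.450% in pool 6 and 0.345% and 0.300% in pool 12. It averaged 0.430% ± 0.145 (SD, n = 4) there and 0.407% ± 0.175 (SD, n = 4) at 2-3 h, so that these blocks differed by less than the spread between embryos. The mean was 0.623% ± 0.317 (SD, n = 6) at 4-5 h, 1.02% ± 0.460 (SD, n = 6) at 5.5-6.5 h, 2.27% ± 0.615 (SD, n = 4) at 7-7.5 h, 2.81% ± 0.435 (SD, n = 6) at 8-9 h and 6.10% ± 0.615 (SD, n = 6) at 11-13 h. At 20 h the embryos held 5.89% and 5.65%. These are shares of gene reads, and more cells with a transcript, more of it per cell and less of other RNA cannot be told apart in whole embryos.

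The sum leans on a few members. ML20766a, ML01482a, ML26358a, ML07216a and ML026516a, chosen here because they were the most abundant late, supplied 42.4% of the members' reads from 11 h on, with 13.4% from ML20766a alone. Giving each member the same weight, the median log2 level relative to 0-1 h was -0.01 at 2-3 h, 0.35 at 4-5 h, 0.89 at 5.5-6.5 h, 1.51 at 7-7.5 h, 1.92 at 8-9 h, 2.70 at 11-13 h and 2.72 at 20 h. Over the same blocks the 3866 other genes with at least 20 CPM at 0-1 h went from -0.09 to -0.95 in the median.

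**Figure D2:**
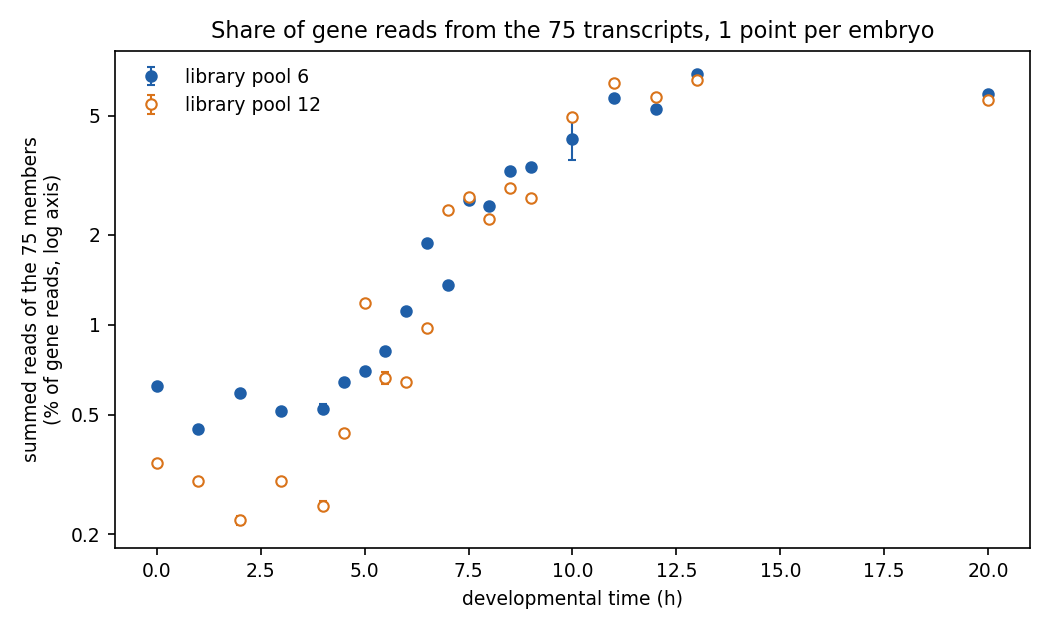
Summed reads of the 75 members as a percentage of gene reads (log axis) against developmental time in h, with 1 point per embryo and 95% exact binomial intervals that cover counting error only. The shares lie between 0.222% and 0.626% up to 3 h and between 5.26% and 6.88% from 11 h on, and the 10 h embryos, which the rule did not use, lie at 4.18% and 4.96%.

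The embryos of 10 h give values that had no part in choosing the members. In 10 h replicate 2 the set held 4.96% of gene reads, above every younger embryo and below every older one. In 10 h replicate 1 it held 159 of 3808 reads, 4.18% with an exact 95% interval of 3.56% to 4.86%. Whether some of these few reads came from other embryos of the same pool was not tested. In 10 h replicate 2, 58 of the 75 members stood at 2 times their 0-1 h level or more, 40 at 4 times or more and 6 below it. Of the 3866 other genes with at least 20 CPM at 0-1 h, 2.28% stood at 2 times that level or more in the same embryo and 85.8% below it. Members had to reach 4 times their 0-1 h level in a late block. The other genes are those that did not meet the rule. A difference between these groups at 10 h is therefore in large part set by the choice and is no result about them. Compared with the 9 h and 11 h embryos of its own pool, 10 h replicate 2 lay between them for 48 members, above both for 14 and below both for 13. The share between was 64.0% of the members and 41.7% of all tested genes. Genes that rise late were chosen, so this difference too is in large part set by the choice. The median member had 138 CPM at 9 h, 183 at 10 h and 242 at 11 h in pool 12.

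The members differed in when they left the starting level. The block from which a member stayed at 2 times its 0-1 h level or more was 2-3 h for 4 members, 4-5 h for 13, 5.5-6.5 h for 16, 7-7.5 h for 17, 8-9 h for 11, 11-13 h for 11 and 20 h for 2, and 1 member met this in no block. The largest rise between neighbouring blocks fell at 11-13 h for 22 members and at 4-5 h for 20, and at 5.5-6.5 and 7-7.5 h for 10 and 12. The blocks are unevenly spaced in time, with 10 h left out before 11-13 h, and the rule asked for a high late block. These counts therefore do not compare rates of rise.

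The steps from 2-3 h to 8-9 h involve neither the 0-1 h nor the late blocks and were tested across all 9576 genes that passed the filter on low counts, which kept all 75 members. Calls required an adjusted p under 0.05 in edgeR's quasi-likelihood test together with a log2 fold change of 1 or more in size. The rule fixes that a member rises between 0-1 h and the late blocks, and that no earlier block exceeds the highest late one, so some step had to go up and falls were held down. It does not fix which step rose. The shares of all genes beside the counts below include many genes that the rule passed over for not rising, so a higher share in the members is in large part set by the choice and is no result about them. From 2-3 to 4-5 h 9 of 75 members rose, or 12.0%, where 4.08% of all tested genes did. From 4-5 to 5.5-6.5 h 16 rose, or 21.3%, against 3.72%. From 5.5-6.5 to 7-7.5 h 9 rose, or 12.0%, against 2.88%, and with the library pool as a block 18 rose, or 24.0%, against 4.51%. From 7-7.5 to 8-9 h 2 rose, or 2.67%, against 0.982%. In all, 29 members (38.7%) rose in at least 1 step, where 10.1% of all tested genes and 1.71% of the 3866 other genes with at least 20 CPM at 0-1 h did. In at least 2 steps 7 members (9.33%) rose, where 1.38% of all tested genes did. No member was called lower in the 4 steps by edgeR or by DESeq2 over all embryos and filtered genes. Of all tested genes 0.553%, 0.752%, 1.17% and 0.324% fell by edgeR, shares that come to fewer than 1 of 75, so the 0 says little about the members. After removal of 4 h replicate 2, 1 member was called lower in the first step, and without the filter on low counts 3 were lower in the second and 1 in the fourth.

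The median log2 change of the members was 0.47, 0.70, 0.70 and 0.46 in these steps, and that of all tested genes 0.00, 0.05, 0.12 and 0.02. The counts rest on few embryos. For the first step 4 members were called after removal of 4 h replicate 1 and 14 after removal of 5 h replicate 1. For the second step 5 were called after removal of 4 h replicate 2, and 8 after removal of replicate 1 of either 5 or 5.5 h. For the third step 1 was called after removal of 6 h replicate 2, and 2 after removal of replicate 1 of 5.5 h or of replicate 2 of either 7 or 7.5 h. In the same step 3 were called after removal of 6.5 h replicate 1, of which 2 were among the 9. There were 5 calls after removal of 6.5 h replicate 2 and also of 7.5 h replicate 1, with 5 and 4 of them among the 9. The fourth step lost all its calls after removal of the 4 shallow libraries together, of 7 h replicate 1, of either embryo of 7.5 or 8 h, or of replicate 2 of 8.5 or 9 h. It had 1 call after removal of 9 h replicate 1 or of an embryo of 0 h (replicate 1), 1 h (replicate 1), 11, 13 or 20 h, and 6 after removal of 7 h replicate 2.

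**Figure D3:**
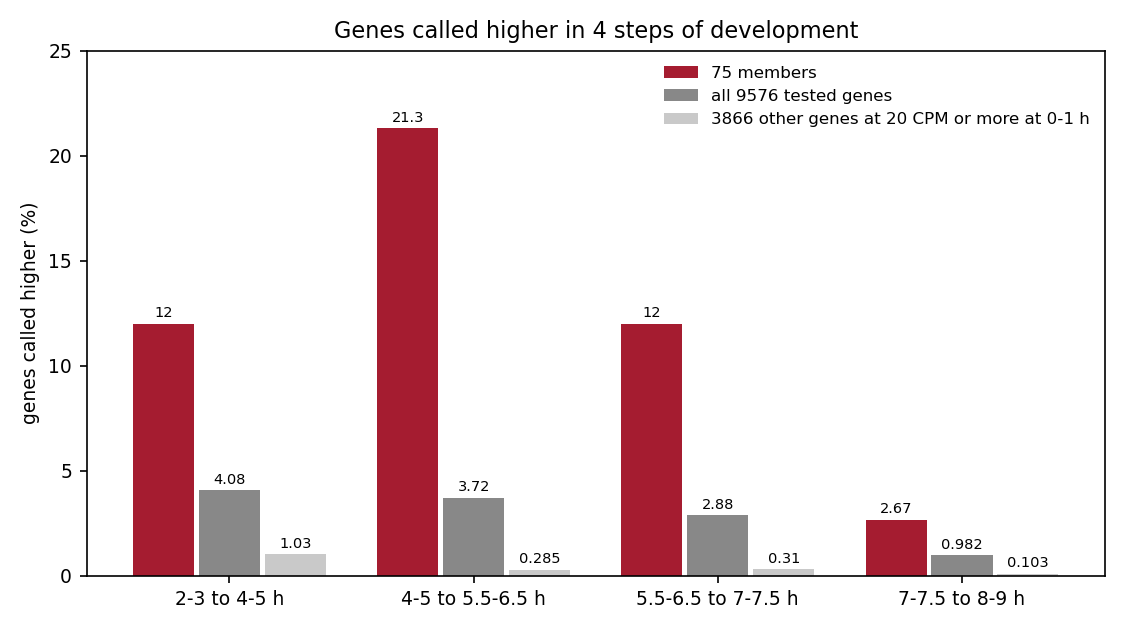
Percentage of genes called higher in each of 4 steps between blocks, for the 75 members, all 9576 tested genes and the 3866 other genes with at least 20 CPM at 0-1 h, as bars from 0. The members' bars are 12.0, 21.3, 12.0 and 2.67%, and those of all genes 4.08, 3.72, 2.88 and 0.982%.

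Differences between times within a block were not asked for by the rule either, which used only their sum. No member was called between 0 and 1 h, 8 and 9 h or 11 and 13 h, and neither was any other gene (0% of 9576 each, 2 embryos against 2, edgeR quasi-likelihood test). At an unadjusted p below 0.05 there were 2, 3 and 0 members and 216, 491 and 185 genes. DESeq2 called 0 members in the 3 comparisons, and of all genes 7 higher and 7 lower from 0 to 1 h, 1 lower from 8 to 9 h and none from 11 to 13 h.

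Among the members, the smallest p of any step was that of ML02212a after 3 h. This transcript had 19.2 and 33.0 CPM in the 0 h embryos and 27.5 and 21.5 at 1 h, then 1.25 and 0 at 2 h and 1.08 and 0.981 at 3 h. At 4 h it stood at 34.4 and 11.3 CPM, and from 4 to 5 h its 6 embryos ran from 11.3 to 42.1 with a median of 30.2. No embryo of 2-3 h reached any embryo of 0-1 h or of 4-5 h. The log2 fold change from 2-3 to 4-5 h was 4.78 ± 0.47 (SE, edgeR adjusted p = 3.54e-08). It stood at 178 ± 40.0 CPM at 11-13 h (SD, n = 6) and at 288 and 210.5 at 20 h. Of the genes just outside the rule, ML22521a had the same low point, with 78.8 ± 20.1 CPM at 0-1 h (SD, n = 4), 1.74 ± 1.72 at 2-3 h (SD, n = 4) and 50.8 ± 39.6 at 4-5 h (SD, n = 6).

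A low point at 2-3 h occurred in 11 members, counted where the lowest block between 2 and 9 h was at least 2-fold below 0-1 h and was 2-3 h. How many other genes had such a low point was not counted. The 0-1 h level it is measured from also entered the rule, so the count is no result about the members. Their median level was 29.5 CPM at 0-1 h, 7.15 at 2-3 h, 32.6 at 4-5 h, 154 at 8-9 h and 430 at 20 h, and 10 of the 11 were highest at 20 h. ML034657a is a second example, with 49.2 and 27.2 CPM at 0 h, 54.3 and 41.3 at 1 h, 6.23 and 11.1 at 2 h and 9.39 and 3.92 at 3 h. All 4 embryos of 2-3 h were below all 4 of 0-1 h. It had 43.1 and 6.90 CPM at 4 h and 1371 and 1186 CPM at 20 h.

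ML068319a, also of this group, had the smallest p of the members from 4-5 to 5.5-6.5 h. It stood at 44.8 ± 11.7 CPM at 0-1 h (SD, n = 4) and at 21.3 ± 4.58 at 2-3 h (SD, n = 4). From 4 to 5 h its embryos ran from 18.2 to 135 CPM with a median of 31.3, and from 5.5 to 6.5 h from 75.7 to 222 with a median of 156. The log2 fold change was 1.81 ± 0.35 (SE, edgeR adjusted p = 0.00202). These ranges overlap through 5 h replicate 2, the embryo at 135 CPM.

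In the same group, ML078933a, singled out after its values were seen, had 90.1 and 33.0 CPM in the 0 h embryos but 5.90 and 3.22 at 1 h. It stayed between 3.11 and 11.1 CPM at 2-3 h and reached 2851 and 2109 CPM at 20 h. In 4 h replicate 1, one of the shallow libraries, it stood at 119 CPM, against 3.14 in 4 h replicate 2 and 4.31 and 3.96 at 4.5 h. Whether some of its reads in 0 h and 4 h replicate 1 came from later embryos of the same pool was not tested, so its early level is uncertain. ML10942a, the second most abundant member at 0-1 h, had 634 CPM in 0 h replicate 1 and 145, 254 and 149 in the other embryos of that block. It stood at 110.1 ± 74.7 CPM at 2-3 h (SD, n = 4) and at 1429 ± 247 at 11-13 h (SD, n = 6).

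Another 7 members had their low point between 4 and 9 h, again at least 2-fold below 0-1 h. The limits given for the count of the earlier low point hold for this count too. The median of these 7 went from 40.2 CPM at 0-1 h and 76.2 at 2-3 h to 18.9 at 5.5-6.5 h. It was 21.2 at 7-7.5 h and 52.5 at 8-9 h, and then 383 at 11-13 h and 651 at 20 h. From 0-1 to 2-3 h the pools differed. ML35935a went from 47.8 to 118 CPM in pool 6 but from 21.0 to 8.19 in pool 12. ML35651a and ML20265a also rose in pool 6 and fell in pool 12. ML26358a and ML234541a fell in both, and ML009614a and ML216349a rose in pool 12 only. In each pool the lowest block between 2 and 9 h came at 4 h or later for all 7. The most abundant member of the whole set at 0-1 h is among them. ML26358a had 1016 and 419 CPM at 0 h and 342 and 125 at 1 h. It ran from 45.3 to 220.5 CPM with a median of 97.6 over the 6 embryos of 5.5-6.5 h, and from 3051 to 6796 with a median of 5923 over those of 11-13 h. All embryos of 11-13 h were above all embryos up to 9 h, where the highest was 9 h replicate 1 at 1379 CPM.

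For 5 of these 7, namely ML26358a, ML35651a, ML234541a, ML20265a and ML35935a, the level in pool 12 was at least 4-fold higher at 11 h than at 10 h. They were picked for this difference, and the latter 4 were named after their values were seen. From 10 h replicate 2 to 11 h replicate 2 the levels went from 411 to 4467 CPM for ML26358a, from 183 to 1328 for ML35651a and from 49.3 to 697 for ML234541a. They went from 8.30 to 242 CPM for ML20265a and from 17.1 to 269.9 for ML35935a. The list makes up 5 of the 6 members whose level at 10 h was more than 4-fold below that at 11 h, and they were also 5 of the 6 members below their 0-1 h level at 10 h. The sixth of both groups was ML01437a, at 7.78 CPM at 10 h and 31.5 at 11 h. Among all tested genes 10.1% were more than 4-fold lower at 10 h than at 11 h in this pair of embryos. In pool 6 the 10 h library was too shallow for single genes. It held 7 reads of ML26358a, 5 of ML234541a, 2 of ML20265a, 1 of ML35935a and none of ML35651a. Summed over the 5 genes, pool 6 held 0.210% of gene reads at 9 h, 0.394% at 10 h (15 reads, exact 95% interval 0.221% to 0.649%) and 1.00% at 11 h, and pool 12 held 0.0674%, 0.0668% and 0.700%. The order in pool 12 follows from how the 5 were picked, and the value at 10 h in pool 6 rests on 1 library, with an interval for counting error only. Whether some of its 15 reads came from other embryos of pool 6 was not tested.

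ML216349a, also of the late low-point group, had the smallest p of the members from 7-7.5 to 8-9 h. It stood at 4.33 and 15.7 CPM at 7 h and 23.3 and 7.50 at 7.5 h, and then ran from 16.9 to 106 with a median of 58.4 over the 6 embryos of 8-9 h. The ranges overlapped through 8.5 h replicate 1, at 16.9 CPM. The log2 fold change was 2.18 ± 0.52 (SE, edgeR adjusted p = 0.0391). It was not called without the 4 shallow libraries (log2 fold change 1.72, edgeR adjusted p = 0.071) or without any of 7 single embryos of these blocks.

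**Figure D4:**
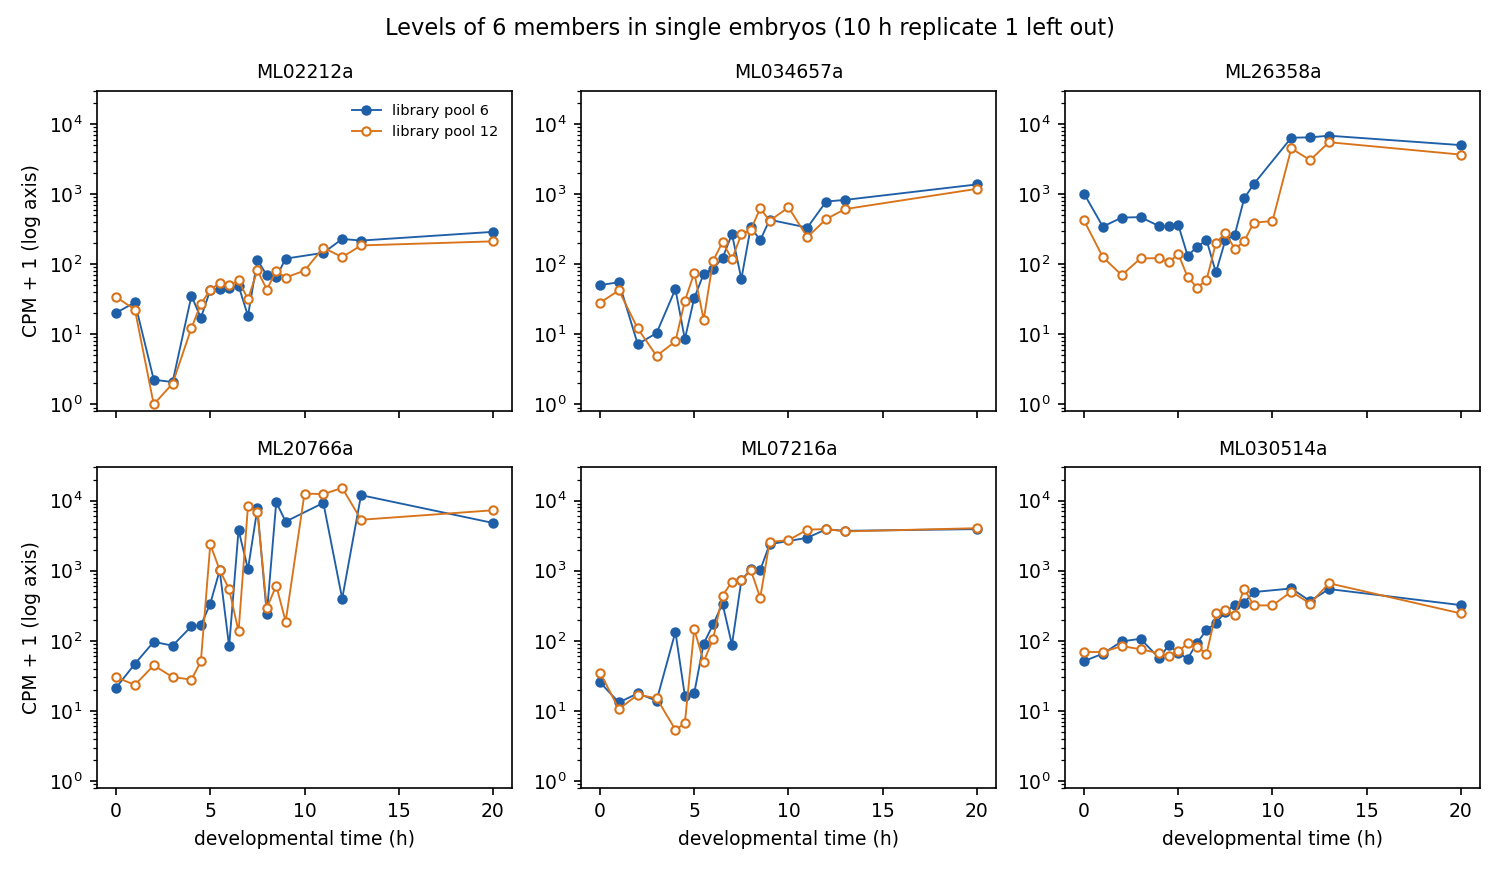
CPM + 1 (log axis) of 6 members in each embryo against developmental time in h, with pools 6 and 12 as separate lines and 10 h replicate 1 left out. ML02212a drops to 0 to 1.25 CPM at 2-3 h, ML26358a steps up between 10 and 11 h in pool 12, and ML20766a swings between 187 and 9481 CPM within 8-9 h.

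The other 57 members had no block between 2 and 9 h that was 2-fold below the start. Of these, 21 rose in at least 1 of the 4 steps, where 10.1% of all tested genes did. The 57 were sorted by levels in the tested blocks. This difference is therefore in large part set by the choice and is no result about them. Their median was 34.8 CPM at 0-1 h, 36.8 at 2-3 h, 60.5 at 4-5 h, 92.4 at 5.5-6.5 h, 132 at 7-7.5 h, 175 at 8-9 h, 239 at 11-13 h and 252 at 20 h. ML030514a, with the smallest p of the members from 5.5-6.5 to 7-7.5 h, is of this kind. It held 62.9 ± 8.49 CPM at 0-1 h (SD, n = 4) and 66.9 ± 11.0 at 4-5 h (SD, n = 6). At 5.5-6.5 h its embryos ran from 54.9 to 142 CPM with a median of 85.9, and the 4 embryos of 7-7.5 h had 178, 245, 259 and 278. These groups did not overlap, and the log2 fold change was 1.57 ± 0.26 (SE, edgeR adjusted p = 0.00296).

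ML07216a, with the second largest final ratio, had similar levels in all late embryos. It started from 24.6 and 34.2 CPM at 0 h and 12.2 and 9.66 at 1 h, and 15.0 ± 1.72 at 2-3 h (SD, n = 4). Its level was 199 ± 156 CPM at 5.5-6.5 h (SD, n = 6), 558 ± 315 at 7-7.5 h (SD, n = 4), 1410.2 ± 865 at 8-9 h (SD, n = 6) and 3663 ± 367 at 11-13 h (SD, n = 6), and 3921 and 4043 at 20 h. Embryos of equal age differed in between. It had 133 CPM in 4 h replicate 1 and 4.39 in replicate 2, 17.0 in 5 h replicate 1 and 145 in replicate 2, and 86.7 in 7 h replicate 1 and 695 in replicate 2. The doubt about reads from later embryos holds for 4 h replicate 1 here too. It extends to other members that were high late, such as ML21632a, ML01482a and ML24281a, named after their values were seen. They had 103, 164 and 115 CPM in 4 h replicate 1 and 26.3, 31.4 and 11.9 in 4 h replicate 2.

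ML20766a had the largest final ratio and an uneven course. It began at 20.4 and 29.3 CPM at 0 h and stood at 1050.0, 8369, 7734 and 6875 CPM in the embryos of 7 and 7.5 h. At 8 h it had 238 and 293 CPM and at 9 h 5018 and 187. The 6 embryos of 8-9 h ran from 187 to 9481 CPM with a median of 452, and those of 11-13 h from 398 to 15172 with a median of 10625. The low embryo of 11-13 h was 12 h replicate 1, while replicate 2 of the same age was the highest. With this spread none of its 4 steps was called. ML12231a, singled out after its values were seen, was uneven in the same way late, with 161 CPM in 20 h replicate 1 and 3353 in replicate 2.

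The library pools, which are also the replicate series, differed for a part of the set. The rule summed over both pools and did not ask for a difference between them. Its floor of 20 CPM at 0-1 h was set on that sum, so a gene under it in either pool could pass through the other. ML40298a had 34.9 CPM in pool 6 and 6.06 in pool 12 there, and ML04521a 14.3 and 35.0. The pool calls and the pool counts at 0-1 h are therefore not free of the rule. With pool added to the 20 times in edgeR, 12 of 75 members (16.0%) were lower in pool 12 and none was higher, where 4.55% of all tested genes were lower in it and 0.209% higher. Of the 3866 other genes with at least 20 CPM at 0-1 h, 6.26% were lower. The median log2 difference of the members was 0.00 with the main scaling and -0.22 with scaling by total counts, where that of all genes was -0.20.

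ML13174a had the smallest p of these 12. At 0-1 h it stood at 34.8 and 38.2 CPM in pool 6 and at 23.1 and 15.6 in pool 12. At 2-3 h it stood at 43.0 and 47.7 CPM against 2.46 and 6.37, and at 20 h at 323 against 147. The pool 12 embryo was the lower one at every time compared, with 10 h left out because its pool 6 library was too shallow. Its log2 difference was -1.38 ± 0.20 (SE, edgeR adjusted p = 2.16e-05). The ratio of its higher late block to 0-1 h was 8.77 in pool 6 and 7.82 in pool 12. Of the 12, 4 belong to the 7 members with the late low point, and the median log2 difference of those 7 between the pools was -1.15 at 0-1 h, -2.26 at 2-3 h, -1.54 at 4-5 h, -1.68 at 5.5-6.5 h, -0.05 at 7-7.5 h, -1.63 at 8-9 h and -0.45 at both 11-13 and 20 h.

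By total counts, 52 of 75 members were lower in pool 12 at 0-1 h and 21 of them at least 2-fold, where 52.9% and 11.9% of all tested genes were. At 2-3 h these counts were 55 and 31 (50.7% and 18.0% of all tested genes), at 4-5 h 36 and 12 (57.2% and 11.0%) and at 5.5-6.5 h 62 and 31 (63.0% and 19.2%). At 7-7.5 h they were 28 and 5 (58.9% and 7.59%), at 8-9 h 54 and 15 (58.5% and 12.1%), at 11-13 h 44 and 6 (68.2% and 14.1%) and at 20 h 54 and 9 (52.8% and 14.8%). At least 2-fold higher in pool 12 were 8 members at 4-5 h, 4 at 7-7.5 h, and 0 to 3 in the other blocks. The counts moved up and down from block to block, and at 4-5, 7-7.5 and 11-13 h a smaller share of the members than of all genes was lower in pool 12. Same-age embryos differed by a median of 0.59 on the log2 scale for the members at 0-1 h, 1.00 at 2-3 h and 4-5 h, 0.87 at 5.5-6.5 h and 0.46 at 11-13 h. For the other genes with at least 20 CPM at 0-1 h these values were 0.37, 0.58, 0.52, 0.55 and 0.46. The values differed most from 0 to 6.5 h and were equal at 11-13 h, which is a description with no test.

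The rule asked for a 4-fold ratio over both pools together, so the ratios within a pool are a description and largely fixed by it. The ratio of the higher late block to 0-1 h had a median of 7.07 in pool 6 and 8.53 in pool 12, and all 75 members reached 2-fold in both pools. At 4-fold there were 67 members in pool 6, 70 in pool 12 and 62 in both. The lowest ratios were 2.72 for ML046327a in pool 6 and 2.15 for ML115915a in pool 12. ML12231a lay farthest apart of the 75, with ratios of 3.68 in pool 6 and 71.6 in pool 12.

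**Figure D5:**
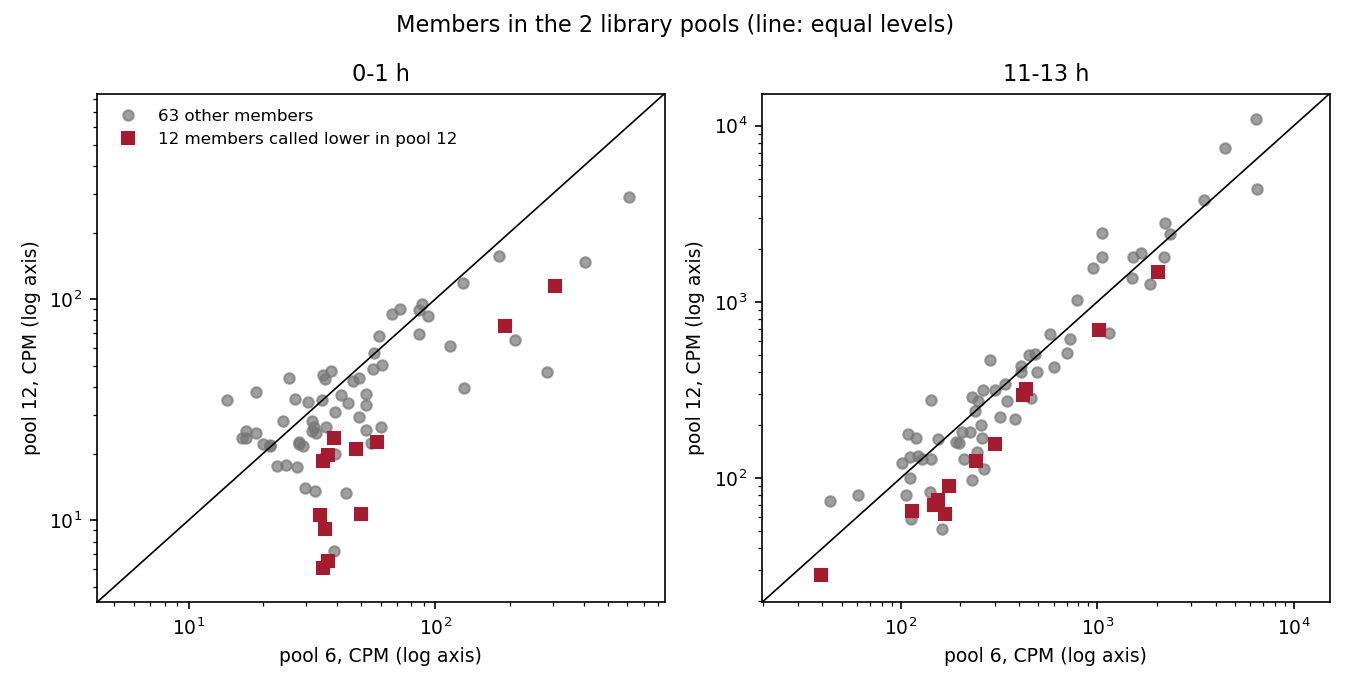
CPM of the 75 members in pool 12 against pool 6 (log axes, line at equal levels), at 0-1 h and at 11-13 h, with the 12 members called lower in pool 12 as squares. At 0-1 h 52 of 75 points lie below the line, many of them far from it, and at 11-13 h the points lie closer to it.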

How the data were processed

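The authors deposited whole-number counts per gene model for 40 embryos made by CEL-Seq, which reads transcript 3' ends. HTSeq 0.5.4p3, Bowtie2 2.1.0 and CASAVA 1.8 are the tools listed in the submitters' processing notes. Not given in the sources used here are the build, the strand setting and any merging of molecular identifiers, so genes with close copies or overlapping neighbours are uncertain, and intervals cover counting error only. The deposited sample sheet gives other values, the index number of each library. A total of 5 rows that name no gene were left out, and the gene models' median share of all reads was 30.8%.

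Levels are CPM of total gene reads. Tests used edgeR 4.0.16 in R 4.3.3 on all embryos (filterByExpr with a count minimum of 10, TMM, a 20-level time factor, Benjamini-Hochberg within each of 8 contrasts). Standard errors are the log2 fold change over the square root of F. In the left-out-embryo fits the dispersion trend was kept. Logs of CPM outside edgeR used a pseudocount of 1 CPM where stated or where pools, same-age embryos or single embryos are compared. DESeq2 1.42.0 was an alternative. The tests were checked on simulated data.

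Libraries of the same replicate number share an Illumina index number, per the deposited sheet. Same-age pool differences, compared between 171 pairs of times, had a median correlation across genes of 0.102 (range -0.227 to 0.531), and 89 exceeded 0.1. Across the members alone the median was 0.306 (range -0.243 to 0.704), and 134 exceeded 0.1.

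The members, contrasts and lists were chosen with earlier results of these data known. The text names the 2 members highest at 0-1 h, the 2 with the largest late ratio, the 2 with the deepest low point, the member with the smallest p in each contrast and direction, and 2 genes on each side of the 4-fold limit. Other names were added after their values were seen.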

Additional observations from a re-analysis of the deposited data

Results flagged for a closer look

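A value was set aside where 1 embryo stood apart from the other 3 or 5 of its block by Dixon's test at the 95% level. Over 12 named members and the summed share this was tried in 91 sets of values and met 7 times. Chance gives about 1 in 20 for normally distributed values of equal mean and spread. CPM pooled over several times do not meet this, so nothing is read from the count. Blocks span several times, so an age difference within a block can also set an embryo apart.

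ML20766a stood apart at 2377 CPM in 5 h replicate 2, with the other 5 embryos of 4-5 h between 27.0 and 338, and at 3819.9 CPM in 6.5 h replicate 1, with the others of 5.5-6.5 h between 82.1 and 1019. ML068319a also stood apart in 5 h replicate 2, at 135 CPM against 18.2 to 52.0. ML07216a was low in 7 h replicate 1, at 86.7 CPM against 695 to 727 in the other 3 embryos, and in 11 h replicate 1, at 2949 CPM against 3636 to 3923. In 8.5 h replicate 2, a library of 343202 reads, ML12075a stood at 256 CPM against 96.5 to 130.0 and ML101011a at 579.8 against 186 to 275.

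The set as a whole was high in the first of these embryos and low in 7 h replicate 1. The summed share was 1.18% in 5 h replicate 2 and 0.702% in 5 h replicate 1, and 1.36% in 7 h replicate 1 and 2.42% in 7 h replicate 2. The part of each embryo's stage in these values was not tested.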

How the results depend on the processing

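The number of members stayed between 61 and 104 under 9 alternatives and between 69 and 84 when single embryos were left out. It was 144 with at least 10 CPM at 0-1 h and 28 with at least 40 CPM. With TMM-scaled blocks 79 genes met the rule, 63 of them members. In pool 6 alone 78 did, 57 of them members, and in pool 12 alone 64, of which 51 were members.

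Without a filter on low counts the members called were 20 from 2-3 to 4-5 h, 26 from 4-5 to 5.5-6.5 h (23 higher, 3 lower), 20 from 5.5-6.5 to 7-7.5 h, 8 from 7-7.5 to 8-9 h (7 higher, 1 lower), 1 from 0 to 1 h and 1 from 8 to 9 h. Of the 14596 genes then tested, 579, 576, 602 and 330 rose in the 4 steps and 94, 121, 186 and 104 fell. From 0 to 1 h 2 rose and 7 fell, and from 8 to 9 h 26 rose and 5 fell. DESeq2 called 16 members from 2-3 to 4-5 h and 7 from 7-7.5 to 8-9 h. By that test 480 and 225 of 9576 genes rose there. Without the 4 shallow libraries edgeR called no member from 7-7.5 to 8-9 h, where 55 of 10243 genes rose. The library pool as a replicate block gave 18 from 5.5-6.5 to 7-7.5 h, with all 9 main calls among them. It gave 13, 21 and 2 in the other steps. With it 432 of 9576 genes rose from 5.5-6.5 to 7-7.5 h, and 420, 413 and 127 in the other steps. It changed no call of a named member and no other count of members by over 1.5 times. Counts of all genes moved too, so a larger count of members is no stronger result about them. Leaving out single embryos gave 4 to 14, 5 to 21, 1 to 13 and 0 to 6 members in the 4 steps in order, 0 in each comparison within a block, and 8 to 13 between the pools. Of all genes, 276 rose and 112 fell from 5.5-6.5 to 7-7.5 h, and 191 and 152 by DESeq2. The causes were not tested. ML216349a lost its call from 7-7.5 to 8-9 h under 8 of 47 alternatives. The other 4 tests printed for a named member kept their calls. The 3808 reads of 10 h replicate 1 are too few to follow single members.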
